A study of Mus musculus with 235 samples.

Results

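The libraries described here come from punches of one hypothalamic region, PVN in the labels, a name that in this field stands for the paraventricular nucleus of the hypothalamus. Dexamethasone was compared with vehicle 4 h after injection. The members were the libraries whose names in the deposited count table carry PVN and one of the 2 arms, and they numbered 29, of which 15 were from dexamethasone-treated and 14 from vehicle-treated mice, beside 206 libraries of the other 7 regions. Of these 29 names, 24 began with a prefix that went with plates 1 to 3 of the labels. The 5 names without it were those of plate 4. The whole series covers 8 brain regions of 30 animals. All were C57Bl/6 males aged 3 months, with no transgene or deletion named in the labels. The treated group received dexamethasone, a synthetic glucocorticoid, at 10 mg/kg into the peritoneum, and the control group received saline by the same route. Each library was made from 1 region of 1 animal, so the spread within an arm is a spread between animals and between punches. Vehicle replicate 2 was not analysed here.

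Neurons of the paraventricular nucleus make corticotropin-releasing hormone, encoded by Crh, which starts the hormonal stress response of the pituitary and the adrenal gland. Others make oxytocin (Oxt) and vasopressin (Avp), released from the posterior pituitary, or thyrotropin-releasing hormone (Trh), which sets the thyroid axis. Adrenal glucocorticoids feed back on the same region. They bind the glucocorticoid receptor, a transcription factor encoded by Nr3c1 that is present in neurons, glia and vessel cells and that both raises and lowers transcription of its target genes. Dexamethasone binds this receptor and enters the brain only in part when given outside it.

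The libraries counted 3′ ends of transcripts with molecular identifiers, and held 361319 to 1277998 counts in the vehicle arm and 384086 to 1181405 in the dexamethasone arm. Neither the total (permutation test, two-sided p = 0.36, adjusted over 2 measures 0.72) nor the RNA integrity number (5.91 ± 0.63 SD, n = 14, against 6.01 ± 0.96 SD, n = 15; permutation p = 0.759) differed beyond the spread. Genes of neighbouring regions were present in the punches. Pmch, the melanin-concentrating hormone gene of the neighbouring lateral hypothalamus, ranged from 121.7 to 2413 counts scaled to a library total of 1000000 (CPM) in vehicle and from 11.1 to 1924 CPM in dexamethasone libraries. The summed level of 12 listed thalamus genes ranged from 1279 to 4143 CPM (median 3086) in vehicle and from 1422 to 3702 CPM (median 2248) after dexamethasone. Sim1, a transcription factor gene that defines neurons of this nucleus, was at 0 in 3 of the 29 libraries, and Otp, a second one, was at 0 in 1. Of the 16 listed hypothalamic identity factors, Bsx was at 0 in all 29 libraries. In 2 libraries genes of other regions stood apart. Dexamethasone replicate 1 had the highest Slc17a7 (195.1 CPM, next 70.9) and Ddn (330.8, next 144.2), genes of forebrain neurons. Dexamethasone replicate 2 had Slc6a3, a dopamine neuron gene, at 193.9 CPM (next 8.16). Without replicate 1 the number of genes called was 523 and without replicate 2 it was 525, against 522 with all libraries.

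Dexamethasone raised known glucocorticoid target genes, growth arrest genes and 1 thyroid hormone enzyme, and lowered some genes of microglia, of the oligodendrocyte lineage and 2 receptor genes of vessel growth. The steepest rise was that of Cdkn1a, 11.6-fold, and the steepest fall that of Cx3cr1, 4.06-fold. By edgeR's quasi-likelihood test with Benjamini-Hochberg adjustment, 522 of 9273 genes passed an adjusted p of 0.05, or 5.63% of those tested. Of these, 331 were higher after dexamethasone (3.57%) and 191 lower (2.06%). An unadjusted p under 0.05 was found for 1340 genes (14.5%). Changes over 2-fold were found for 74 genes that rose and 17 that fell, and changes over 4-fold for 9 and 1. The median log2 fold change of all genes tested was 0.001. With upper-quartile scaling, 57.1% of the called genes were higher, against 63.4% with the reported scaling, and 493 of the 522 genes passed again. For 37 genes, 0.399% of those tested, no library of one arm lay within the range of the other, and 34 of these were higher after dexamethasone. Within the 4 punching dates that held at least 2 libraries of each arm, 502 of the 522 genes (96.2%) had the same direction on every date. Of all genes tested 21.85% did. The share of called genes is a description, since they were called on the same libraries.

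**Figure D1:**
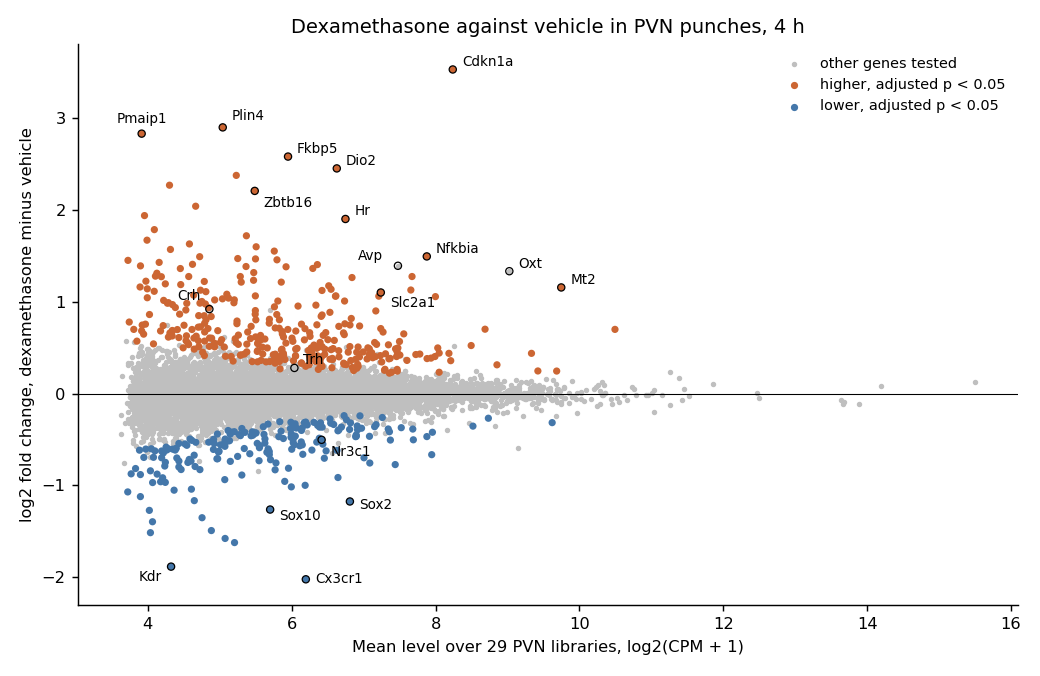
Log2 fold change, dexamethasone minus vehicle, of the 9273 genes tested (vertical) against the mean level over 29 PVN libraries as log2(CPM + 1) (horizontal). Each point is a gene, and orange and blue points are the 331 higher and 191 lower genes at an adjusted p under 0.05. Genes with a name are ringed, and Oxt, Avp, Crh and Trh, in grey, did not pass, although Oxt and Avp have log2 fold changes of 1.33 and 1.39.

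Of 20 listed glucocorticoid response genes, 16 were tested and 14 passed, all 14 of them higher, against 3.57% of all genes tested. The median log2 fold change was 1.11 over the 16 against 0.001 over all genes. The list was chosen with earlier results of these data known, so this count is a description. The other 2 were the clock gene Per1 (0.43 ± 0.14, edgeR adjusted p 0.0717) and the phosphatase gene Dusp1 (0.45 ± 0.15, adjusted p 0.064). Both passed with the replicate number as a block, Dusp1 with limma's voom, and Per1 without dexamethasone replicate 2. Fkbp5 encodes a chaperone that lowers hormone binding by the receptor. It was at 8.25, 16.2 and 24.0 CPM (lowest, median, highest) in vehicle and at 76.4, 103.8 and 128.7 CPM in dexamethasone libraries. The arms did not overlap, and the log2 fold change was 2.58 ± 0.11 (SE; edgeR adjusted p 3.64e-22).

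Cdkn1a, which encodes the cell cycle inhibitor p21, went from 21.0, 41.5 and 102.1 CPM in vehicle to 351.2, 535.4 and 813.8 CPM after dexamethasone. All 15 treated libraries lay above the highest vehicle library, and the log2 fold change was 3.53 ± 0.15 (SE; edgeR adjusted p 1.71e-22). Zbtb16, a zinc finger transcription factor gene, went from 6.99, 13.3 and 30.9 CPM to 44.6, 75.7 and 89.4 CPM, also without overlap (2.21 ± 0.15 SE). The metallothionein genes Mt1 and Mt2, whose proteins bind zinc, stood at far higher counts in both arms. Mt2 was at 379.8, 512.9 and 637.4 CPM in vehicle and at 945.2, 1237 and 1373 CPM after dexamethasone, and its log2 fold change was 1.16 ± 0.08 (SE). Mt1 rose by 0.70 ± 0.07 on the log2 scale. Both metallothionein genes were without overlap between the arms, as were Nfkbia, which encodes the inhibitor of NF-kappaB (1.49 ± 0.11), Tsc22d3, which encodes the anti-inflammatory leucine zipper protein GILZ (1.06 ± 0.10), and Errfi1, which encodes an inhibitor of the EGF receptor (1.47 ± 0.13). Sgk1, a kinase gene that controls ion transport, had overlapping arms, from 23.3, 65.8 and 122.6 CPM to 82.8, 135.3 and 180.5 CPM, and 11 of 15 treated libraries lay above all vehicle libraries. Its log2 fold change was 1.01 ± 0.16 (SE; edgeR adjusted p 1.52e-05).

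**Figure D2:**
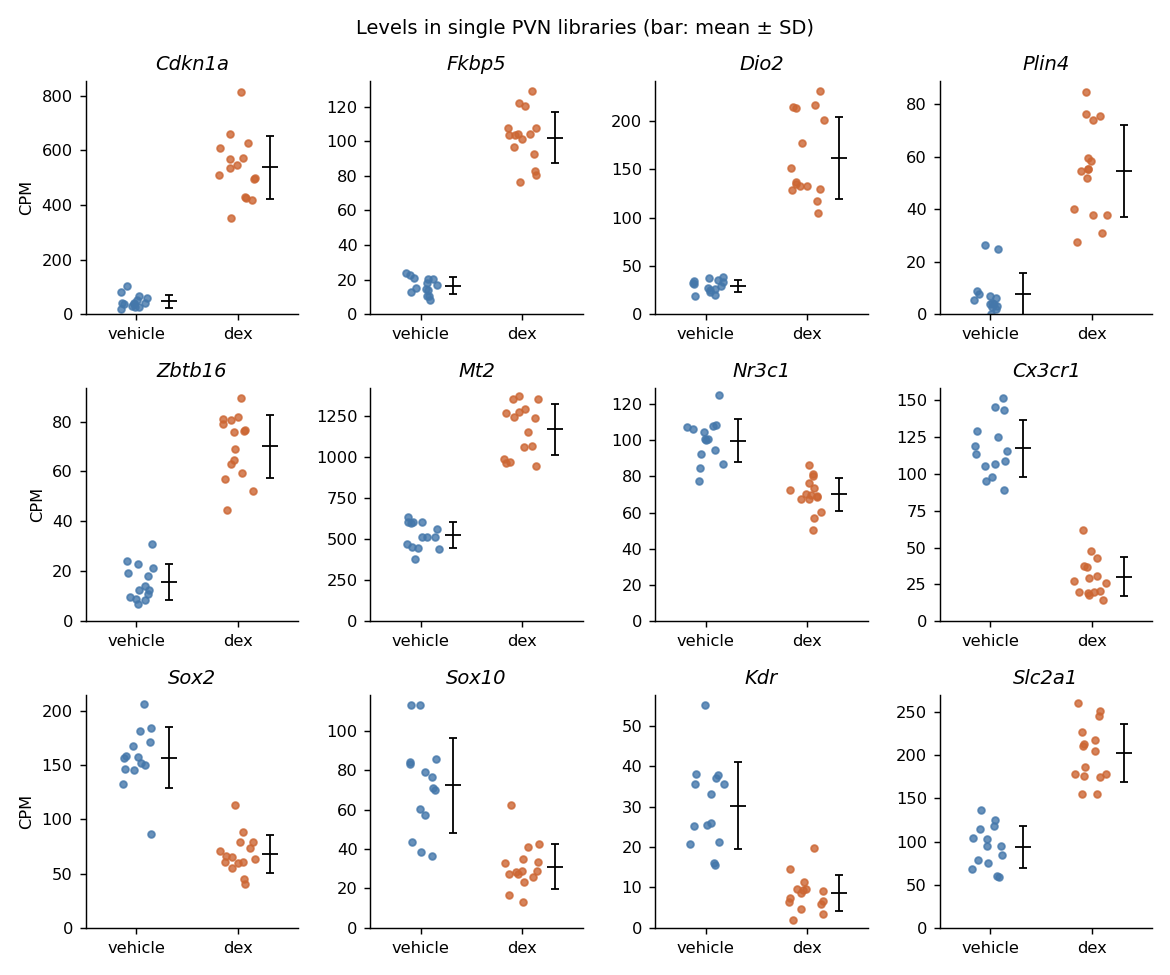
Level in CPM (vertical, linear, from 0) of 12 genes in each PVN library, with vehicle in blue (14 libraries) and dexamethasone in orange (15 libraries). Black bars give the mean ± SD of each arm. The arms do not overlap for Cdkn1a, Fkbp5, Dio2, Plin4, Zbtb16, Mt2, Cx3cr1 and Slc2a1, and they overlap for Nr3c1, Sox2, Sox10 and Kdr.

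The glucocorticoid receptor binds DNA as a pair, at 2 half-sites that mirror each other. A search for GNACANNNTGTNC, a palindrome that reads the same on both strands, was made in the RefSeq promoters (GRCm38.p6) from 250 bases before to 50 after each gene start. Of the 331 genes that rose, 264 had a promoter in the table and 7 held the motif (2.65%), namely Fam107a, Kcna5, Mt1, Ptpdc1, Sgk1, Tinagl1 and Txnip. Of the 191 that fell, 143 had one and 3 held it (2.1%), namely Atf7ip, Car14 and Eml1. It was in 28 of 7374 promoters of genes tested (0.38%) and in 156 of all 32851 promoters (0.475%). These genes were picked by the search, after their values were seen. The promoters of the listed response genes Sgk1 and Mt1 are printed because both rose and both hold the motif, which is in capitals. They lie at chr10:21993640-21993939 and chr8:94178839-94179138, both on the plus strand. The motif starts 188 bases before the RefSeq start of Sgk1 and 94 bases before that of Mt1. This RefSeq start of Sgk1 lies inside the gene as counted, which starts at chr10:21882184.
Sgk1: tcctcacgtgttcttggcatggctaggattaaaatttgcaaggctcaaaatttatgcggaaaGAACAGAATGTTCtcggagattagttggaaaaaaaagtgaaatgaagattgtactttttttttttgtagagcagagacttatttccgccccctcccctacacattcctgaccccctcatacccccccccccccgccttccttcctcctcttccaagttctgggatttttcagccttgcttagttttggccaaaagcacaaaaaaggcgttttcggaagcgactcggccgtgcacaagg
Mt1: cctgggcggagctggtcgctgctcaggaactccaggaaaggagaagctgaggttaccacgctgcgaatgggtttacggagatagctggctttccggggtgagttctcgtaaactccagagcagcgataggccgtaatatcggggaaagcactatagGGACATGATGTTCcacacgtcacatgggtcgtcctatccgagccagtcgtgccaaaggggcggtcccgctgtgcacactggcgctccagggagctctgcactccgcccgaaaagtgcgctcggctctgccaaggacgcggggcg
A match is a run of letters in this window and was not compared with binding data, and a gene without a match may hold the motif elsewhere.

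Among 19 tested steroid receptor and chaperone genes, 2 rose and 1 fell, against 3.57% and 2.06% of all genes tested, with a median of -0.02. The gene that fell was Nr3c1 itself, from 77.4, 100.4 and 125.2 CPM in vehicle to 50.3, 69.5 and 86.0 CPM after dexamethasone. Of the 15 treated libraries, 12 lay below the lowest vehicle library, and the log2 fold change was -0.50 ± 0.08 (SE; edgeR adjusted p 8.77e-06). The mineralocorticoid receptor gene Nr3c2, which encodes the receptor with the higher affinity for corticosterone, was at 0, 11.8 and 22.3 CPM in vehicle and at 2.36, 11.1 and 28.3 CPM after dexamethasone, and was too low for the test. Besides Fkbp5, the gene that rose was the coactivator gene Ncoa1 (0.25 ± 0.08, adjusted p 0.0373), whose arms overlapped. Ncoa1 did not pass with the Oxt and Avp level in the fit, with upper-quartile scaling, with no filter or the filter of 10 counts, with the deposited log2 values or without dexamethasone replicate 1. The chaperone gene Hsp90ab1, given after its value was seen, was at 983 to 1454 CPM in vehicle and 985.1 to 1601 CPM after dexamethasone (0.07 ± 0.07, adjusted p 0.795).

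The peptide genes that mark this nucleus varied widely between punches, with a coefficient of variation of Oxt of 147% in vehicle and 92.8% in dexamethasone libraries. Oxt was at 5.31, 125.8 and 1559 CPM (lowest, median, highest) in vehicle and at 1.32, 696.5 and 1735 CPM in dexamethasone libraries, so the arms overlapped almost fully. Its mean was 290.8 ± 427.4 CPM (SD, n = 14) against 733.9 ± 680.9 CPM (SD, n = 15). The log2 fold change was 1.33 ± 0.59 (SE; edgeR adjusted p 0.26), and on log2(CPM + 1) the difference was 0.89 (permutation test, two-sided p = 0.425, adjusted over 4 genes 0.482).

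Avp was at 3.44, 37.1 and 498.6 CPM in vehicle and at 0, 104 and 1088 CPM after dexamethasone, with 2 treated libraries at 0. Its log2 fold change of 1.39 ± 0.58 (SE) did not pass (edgeR adjusted p 0.212; permutation test of log2(CPM + 1), p = 0.482). Crh was at 2.69, 19.6 and 43.3 CPM in vehicle and at 2.64, 24.0 and 127.7 CPM after dexamethasone, and 6 of 15 treated libraries lay above the highest vehicle library. The fitted log2 fold change was 0.92 ± 0.35 (SE; edgeR adjusted p 0.144; permutation test, p = 0.347). With the mean of Oxt and Avp as a covariate it was 0.19 (adjusted p 0.833). Trh was at 6.73, 50.3 and 134.6 CPM against 0, 81.4 and 146.8 CPM. Its fitted log2 fold change was 0.28 ± 0.33 (SE; edgeR adjusted p 0.826), and the difference on log2(CPM + 1) had the opposite sign (-0.55, permutation p = 0.434).

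In all, 0 of 16 tested genes of the list of hypothalamic peptides passed, against 5.63% of all genes, and 3 of the 16 had an unadjusted p under 0.05, against 14.5% of all genes. DESeq2 and limma's voom with quality weights also called 0 of them. In 2 other fits 1 peptide gene each passed. With the replicate number as a block Crh was called higher (0.97, edgeR adjusted p 0.0255), and with surrogate variables Avp was called lower (-0.76, adjusted p 0.04999). The list's median log2 fold change was 0.06. Within the 4 punching dates, Oxt was higher after dexamethasone on 2, with differences from -1.89 to 5.34 on the log2 scale, Avp on 3, Crh on 3 and Trh on 2. Within the 4 plates the counts were 2, 3, 2 and 2. At this spread a change of the peptide genes of about the fitted size could not be told from the variation between punches.

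In the vehicle arm Avp, Crh and Trh were high in the punches where Oxt was high. Over the 14 vehicle libraries, Oxt and Avp on log2(CPM + 1) had a Pearson r of 0.856 (permutation p = 0.00011, adjusted over 6 relations 0.00051) and a Spearman rho of 0.846 (permutation p = 0.00017, adjusted 0.00087). Without the 2 libraries farthest from the Oxt median r was 0.823. With Crh, Oxt had r = 0.841 (permutation p = 0.00017; rho 0.846, p = 0.00029; 0.761 without the 2 farthest) and with Trh 0.718 (permutation p = 0.00303; rho 0.582, p = 0.0314; 0.794 without the 2 farthest). The dexamethasone libraries fell into 2 clusters, with 5 libraries at or below 15.7 CPM of Oxt and 10 at or above 261.5 CPM, so no correlation of a pair of peptide genes over all 15 is given. Within the 10 upper libraries Oxt and Avp had r = 0.846 (permutation p = 0.00201, adjusted 0.00402; rho 0.855, p = 0.00253, adjusted 0.00506), which fell to 0.487 without the 2 farthest libraries and so rested on them. For Crh r was 0.689 (permutation p = 0.0284, adjusted 0.034; rho 0.552, p = 0.106) and 0.268 without the 2 farthest, and for Trh r was 0.485 (permutation p = 0.141; rho 0.406, p = 0.245) and -0.04 without the 2 farthest. No punching date or plate held more than 4 libraries of 1 arm, too few for a value within a date.

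**Figure D3:**
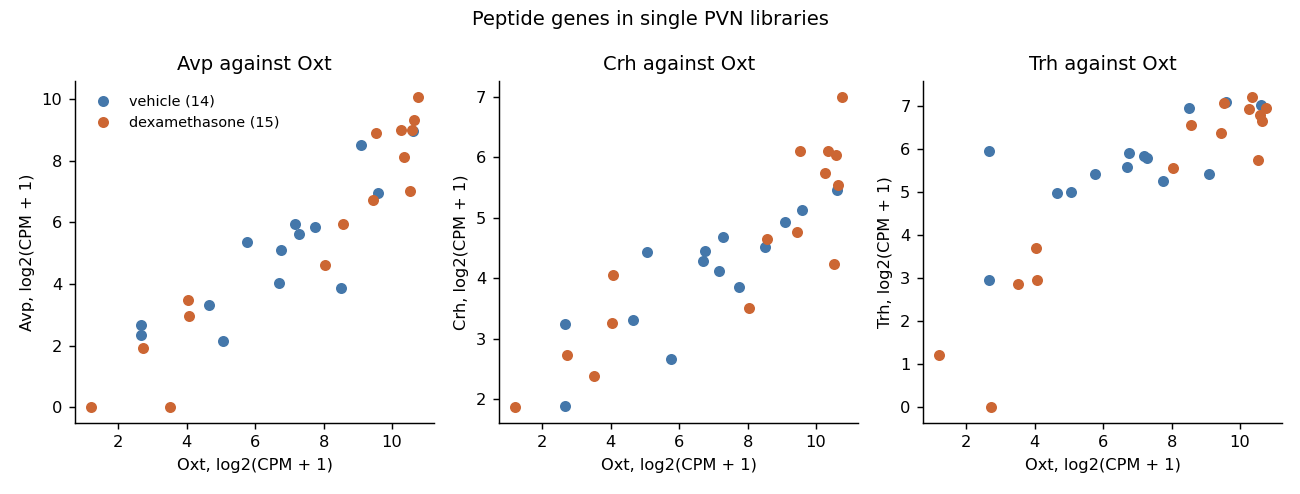
Levels of Avp, Crh and Trh (vertical axes) against Oxt (horizontal axes) in single PVN libraries, all as log2(CPM + 1), with 14 vehicle libraries in blue and 15 dexamethasone libraries in orange. Both arms span nearly the whole range, and Oxt was under 20 CPM in 2 vehicle and 5 dexamethasone libraries.

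Libraries with little Oxt were found in both arms. Oxt was under 20 CPM in 2 of 14 vehicle and 5 of 15 dexamethasone libraries, among them the 2 treated libraries that stood apart for genes of other regions. Over the 29 libraries, and with each arm's own mean taken out, the genes whose level ranked most like the mean of Oxt and Avp were Crh (Spearman rho 0.863), Trh (0.83), Otp (0.775), Cetn2 (0.694), Tmem255a (0.679), Vwa5b1 (0.666), Hrk (0.656) and Vim (0.646). The lowest values were those of Gria4 (-0.655), Tada2a (-0.641), Prr5l (-0.623) and Plxna2 (-0.605). These are descriptions, since the libraries share their dissection, and they pool both clusters of treated libraries. Within the 10 upper treated libraries rho of Oxt was 0.552 with Crh and 0.406 with Trh. Of these 12 genes only Plxna2, a semaphorin receptor gene, passed the test of dexamethasone (0.49 ± 0.11, edgeR adjusted p 0.00216). Of the responding genes described here, rho was 0.193 for Fkbp5, 0.131 for Cdkn1a, -0.103 for Dio2, 0.089 for Nr3c1 and -0.008 for Cx3cr1. The median absolute rho was 0.144 over the 522 called genes and 0.138 over all genes tested.

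With the mean of Oxt and Avp as a covariate, 489 genes were called, 465 of them among the 522 (89.1%). All 522 kept their direction, and their log2 fold changes moved by a median of 0.02 and at most 0.213. With the mean of Sim1, Otp, Pou3f2 and Arnt2, hypothalamic transcription factor genes, as the covariate instead, 495 genes were called and 479 of the 522 were among them (91.8%). Of the named genes, Ncoa1, Foxo1, Cebpb, Col4a2, Col1a2 and Foxo3 no longer passed with the peptide covariate.

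**Figure D4:**
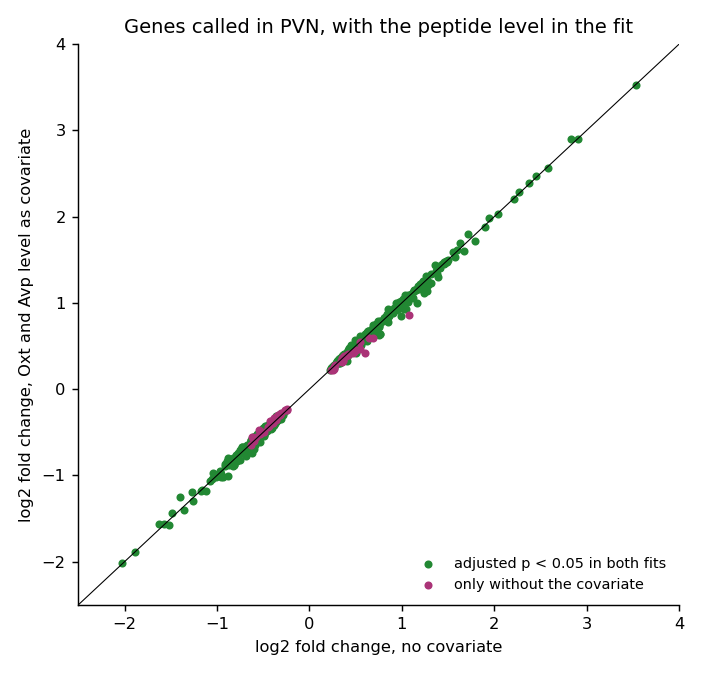
Log2 fold change of the 522 called genes with the mean level of Oxt and Avp in the fit (vertical) against that without it (horizontal), with a line of equality. Green points are the 465 genes at an adjusted p under 0.05 in both fits and purple points the others, and no point lies more than 0.213 above or below the line.

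The thyroid hormone genes held one of the steepest rises. Dio2 encodes the deiodinase that makes the active hormone triiodothyronine from thyroxine, and in the hypothalamus it is known from astrocytes and tanycytes. It was at 19.1, 30.0 and 39.0 CPM in vehicle and at 104.6, 137.1 and 230.9 CPM after dexamethasone. The arms were far apart, and the log2 fold change was 2.45 ± 0.13 (SE; edgeR adjusted p 1.1e-19). Hr, a corepressor gene that thyroid hormone is known to raise in brain, was at 17.1, 35.1 and 99.0 CPM in vehicle and at 11.8, 183.8 and 336.2 CPM after dexamethasone. Its arms overlapped, with 12 of 15 treated libraries above and 1 below the vehicle range (1.90 ± 0.23 SE; edgeR adjusted p 2.79e-08). Klf9, a transcription factor gene raised by both hormones, rose by 0.44 ± 0.08. The thyroxine transporter gene Slco1c1 of vessels and astrocytes fell by 0.80 ± 0.13 on the log2 scale, from a median of 26.8 to 14.4 CPM. Of 8 tested genes of this list 3 rose and 1 fell, against 3.57% and 2.06% of all genes tested, with a median of 0.36.

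Genes that mark tanycytes, ependyma and choroid plexus were mostly too low to test, and 0 of the 3 tested passed, against 5.63% of all genes, with DESeq2 and voom also calling 0. Of these, 2 had an unadjusted p under 0.05, against 14.5% of all genes. The summed level of the 13 listed genes was 219.7 to 465 CPM in vehicle and 222.5 to 691 CPM after dexamethasone. Whether these cells contribute to the Dio2 level was not tested. In this bulk tissue fewer cells of a type and less RNA per cell cannot be told apart.

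Cx3cr1 encodes the receptor through which microglia sense the neuronal chemokine fractalkine. It was at 88.9, 114.5 and 151.6 CPM in vehicle and at 14.3, 27.6 and 62.2 CPM after dexamethasone, without overlap between the arms, and its log2 fold change was -2.02 ± 0.13 (SE; edgeR adjusted p 8.96e-16). The purinergic receptor gene P2ry12, which steers microglial processes, fell from a median of 24.4 to 12.2 CPM (-0.75 ± 0.18, adjusted p 0.00543), and Sall1, a factor of microglial identity, from 20.3 to 12.3 CPM (-0.70 ± 0.19, adjusted p 0.0151). These 3 of 14 tested genes fell by edgeR, against 2.06% of all genes tested, and 0 rose, and the list's median was -0.07. P2ry12 did not pass with voom (adjusted p 0.0617). On the deposited log2 values, which hold 24 of the listed genes, limma called 6 lower, against 258 of all 12924 genes in that fit. Csf1r, the growth factor receptor gene that microglia need to survive, given after its value was seen, was at 28.6 to 45.8 CPM in vehicle and 22.3 to 49.7 CPM after dexamethasone (0.10 ± 0.10, adjusted p 0.77), and 17.8% of its exon bases are shared with an opposite gene. Summed over the 21 listed genes that were not called, the level was 448.5 to 684.3 CPM (median 545.9) in vehicle and 346.6 to 623.4 CPM (median 495.6) after dexamethasone. The part of the cell content in the falls was not tested.

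In the oligodendrocyte lineage, 4 of 19 tested genes fell by edgeR, against 2.06% of all genes tested, and 0 rose, with a median of -0.19. Sox10, the lineage's defining transcription factor gene, was at 36.4, 73.8 and 113.3 CPM in vehicle and at 13.2, 28.6 and 62.2 CPM after dexamethasone. The arms overlapped in 3 of the 15 treated libraries, and the log2 fold change was -1.26 ± 0.16 (SE; edgeR adjusted p 5.49e-08). Aspa, which encodes the enzyme that splits N-acetylaspartate, fell from a median of 31.3 to 13.1 CPM (-1.04 ± 0.21). The myelin genes Opalin (-0.83 ± 0.18) and Ermn (-0.62 ± 0.13) also fell, and of Ermn 6.52% of the exon bases are shared with a gene on the other strand. Nkx6-2, a factor gene of myelinating cells, was among the steepest falls, from 26.4, 48.2 and 72.1 CPM to 8.40, 14.6 and 34.4 CPM (-1.58 ± 0.17), with 12.9% of its exon bases shared with an opposite gene. Without the called genes the list's summed level was 5228 to 9210 CPM (median 7025) and 3693 to 10330 CPM (median 6693), and the part of white matter content was not tested.

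Sox2, a transcription factor gene which keeps glial and precursor cells in their state, went from 86.6, 157.4 and 206.7 CPM to 40.2, 64.9 and 113.6 CPM. Of 15 treated libraries 13 lay below the vehicle range (-1.17 ± 0.11 SE; edgeR adjusted p 1.59e-11). Sox9, a factor gene of astrocytes, fell by 0.67 ± 0.08 on the log2 scale, with 14 of 15 treated libraries below the vehicle range. In the astrocyte list of 20 tested genes edgeR called 2 higher and 1 lower, against 3.57% and 2.06% of all genes tested, with a median of -0.01. The 1 lower was Sox9, and the 2 higher were the connexin gene Gjb6 (0.36 ± 0.08) and the growth factor receptor gene Fgfr3 (0.39 ± 0.09). DESeq2 and voom called the water channel gene Aqp4 lower as well (-0.32 ± 0.10, edgeR adjusted p 0.0586), and voom also called the glutamine synthetase gene Glul higher. Id3, an inhibitor of differentiation factors, chosen after its value was seen, fell with arms that did not overlap (-0.999 ± 0.109).

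Vessel genes moved in both directions. The vascular growth factor receptor gene Kdr was at 15.5, 29.5 and 55.1 CPM in vehicle and at 2.05, 8.72 and 19.8 CPM after dexamethasone. Of the 15 treated libraries 14 lay below the vehicle range (-1.88 ± 0.21 SE; edgeR adjusted p 2.4e-09). Flt1, the second receptor gene for the same factor, went from 124.7, 156.7 and 187.9 CPM to 73.5, 96.3 and 120.1 CPM without overlap (-0.70 ± 0.08). The transporter gene Slco1a4 fell by 0.62 ± 0.10. In the opposite direction, Mfsd2a, which carries omega-3 lipids over the blood-brain barrier and keeps the barrier tight, went from 22.3, 41.2 and 71.5 CPM to 82.0, 99.7 and 156 CPM (1.36 ± 0.13). Slc2a1, the glucose transporter gene of the barrier, went from 58.7, 94.7 and 137 CPM to 155, 204.5 and 260.1 CPM (1.10 ± 0.10), and neither of these 2 genes had overlapping arms. Of 18 tested genes of the endothelial list 2 rose and 4 fell, against 3.57% and 2.06% of all genes tested, with a median of -0.20. Among genes of pericytes and the vessel wall, the basement membrane collagens Col4a1 (0.87 ± 0.14) and Col4a2 (0.47 ± 0.14) and the fibrillar Col1a2 (0.50 ± 0.15) rose, 3 of 9 tested with 0 lower, against 3.57% and 2.06% of all genes tested, with a median of 0.04. With the Oxt and Avp level in the fit 1 of the 9 was called, Col4a1. Pgf, which encodes a ligand of the Flt1 receptor, was among the steepest rises, from a median of 7.80 to 23.8 CPM (1.79 ± 0.20). Mcam, an adhesion gene of vessels, and the chemokine gene Cxcl12 were among the steepest falls (-1.35 ± 0.19 and -1.17 ± 0.15). Of 3 tested blood genes 0 passed, against 5.63% of all genes, 0 had an unadjusted p under 0.05, against 14.5%, and DESeq2 and voom called 0.

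Plin4, which coats lipid droplets, was at 0, 4.82 and 26.4 CPM in vehicle and at 27.6, 55.2 and 84.6 CPM after dexamethasone, with all treated libraries above the vehicle range (2.90 ± 0.24 SE; edgeR adjusted p 1.52e-12). Abca1, the cholesterol exporter gene, went from 40.4, 52.8 and 65.3 CPM to 75.7, 121.8 and 131.4 CPM, again without overlap (1.12 ± 0.09). Of 22 tested genes of lipid and fuel use 3 rose, these among them, and 0 fell, against 3.57% and 2.06% of all genes tested, with a median of 0.07. Xdh, which encodes the enzyme that forms uric acid, rose from a median of 5.09 to 21.9 CPM (1.94 ± 0.24).

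In the list of insulin, FoxO and mTOR control, 6 of 23 tested genes rose by edgeR, against 3.57% of all genes tested, and 0 fell, with a median of 0.04. With the Oxt and Avp level in the fit 4 of 23 rose, without Foxo1 and Foxo3. Ddit4, which restrains the mTOR kinase, went from 26.4, 54.6 and 79.6 CPM to 69.3, 107.6 and 140.5 CPM, with 12 of 15 treated libraries above the vehicle range (0.96 ± 0.12). The insulin receptor substrate gene Irs2 (0.65 ± 0.09), the factor gene Klf15, which drives amino acid breakdown (0.68 ± 0.13), and Sesn1 (0.41 ± 0.11) rose with it. Foxo1 (0.35 ± 0.10, adjusted p 0.027) and Foxo3 (0.26 ± 0.08, adjusted p 0.0467) were near the threshold. Txnip, chosen after its value was seen, which binds thioredoxin and lowers glucose uptake, rose by 1.24 ± 0.20, and 19.4% of its exon bases are shared with another gene. The serum and glucocorticoid kinase relative Sgk3, chosen in the same way, rose by 1.72 ± 0.18.

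Of 16 tested p53 targets and cell cycle inhibitors, 6 rose and 1 fell, against 3.57% and 2.06% of all genes tested, with a median of 0.15. Cdkn1a belongs to this list too. Ccng1, a cyclin gene that p53 raises, went from 30.8, 43.4 and 68.1 CPM to 75.7, 100.6 and 185 CPM without overlap (1.41 ± 0.11). Trp53inp1 (1.47 ± 0.13) and Gadd45g (1.46 ± 0.16), both stress genes that slow growth, rose by similar amounts. Pmaip1, which encodes the death-promoting protein Noxa, was outside the list and among the steepest rises, from 0, 2.91 and 8.25 CPM to 14.3, 22.4 and 31.7 CPM (2.83 ± 0.22). It had 285 counts in all 29 libraries, so its vehicle level rests on few counts and the size of its rise is uncertain. Cyclin D1, encoded by Ccnd1, fell by 0.53 ± 0.09, and 23.4% of its exon bases are shared with another gene. In the list of serine, one-carbon and ATF4 genes 2 of 12 rose and 0 fell, against 3.57% and 2.06% of all genes tested, with a median of 0.07, and with the Oxt and Avp level in the fit only Mthfd2 was called. They were Mthfd2, a mitochondrial folate enzyme gene (1.08 ± 0.13), and Cebpb (0.68 ± 0.19), of which 20.7% of the exon bases are shared with an opposite gene.

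Zfp36, whose product marks cytokine transcripts for decay, went from 5.50, 8.12 and 27.9 CPM to 27.8, 37.8 and 48.3 CPM, with 14 of 15 treated libraries above the vehicle range (2.04 ± 0.15). With Nfkbia and Tsc22d3 it made up the 3 of 11 tested genes of NF-kappaB control and mRNA decay that rose. The relative Zfp36l1 was the 1 that fell (-0.96 ± 0.12), with 56.0% of its exon bases shared with an opposite gene. These counts stand against 3.57% and 2.06% of all genes tested, and the median was 0.24. Nrros, which encodes a partner of latent TGF-beta in myeloid cells, went from a median of 5.85 to 29.4 CPM without overlap (2.27 ± 0.20). Tnfaip6, which encodes a matrix protein induced by inflammation, fell from a median of 39.8 to 14.6 CPM (-1.49 ± 0.20). Of 8 tested interferon genes edgeR called 1, Znfx1, which rose (1.22 ± 0.13), against 3.57% of all genes tested, with a median of -0.20. On the deposited log2 values, which hold 19 of the listed genes, limma called Irf1 and Irf8 lower as well. In that fit 258 of all 12924 genes were lower. Smim3 (2.38 ± 0.14) was also among the 12 steepest rises. Trim59 (-1.62 ± 0.18), Cdc42ep1 (-1.52 ± 0.18), Rasgrp3 (-1.40 ± 0.23) and Gm28322 (-1.27 ± 0.24) completed the 12 steepest falls.

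Of 16 general neuron genes 0 passed by edgeR, against 5.63% of all genes tested, 0 had an unadjusted p under 0.05, against 14.5%, and DESeq2 and voom called 0. Their summed level was 20760 to 33670 CPM (median 26090) in vehicle and 18140 to 34840 CPM (median 27300) after dexamethasone. Of 19 genes of peptide processing and dense core vesicles 0 passed by edgeR, DESeq2 or voom, and 3 had an unadjusted p under 0.05, with a median of 0.05. Of 34 glutamate and GABA receptor subunits 0 passed by edgeR and DESeq2, voom called Grm4 lower, upper-quartile scaling and the replicate block called Gabra4 lower, and 6 had an unadjusted p under 0.05. Of 10 genes of endocannabinoid signalling, a lipid messenger system known to act in the fast feedback of glucocorticoids in this nucleus, 0 passed by edgeR, DESeq2 or voom and 1 had an unadjusted p under 0.05, with a median of -0.05. Slc17a6, which marks glutamatergic neurons of the hypothalamus, and Gad2, which marks GABAergic ones, both given after their values were seen, had log2 fold changes of -0.15 ± 0.15 and -0.17 ± 0.12 (adjusted p 0.768 and 0.611).

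The kappa opioid receptor gene Oprk1, whose ligand dynorphin is co-released by vasopressin neurons, was the 1 of 9 tested stress and appetite receptors that rose, against 3.57% of all genes tested, from 18.6, 27.9 and 35.4 CPM to 17.0, 39.2 and 49.7 CPM (0.41 ± 0.12, edgeR adjusted p 0.0236). Its arms overlapped, with 10 of 15 treated libraries above the vehicle range, and it did not pass with surrogate variables or with the deposited log2 values (highest adjusted p 0.158). Among 14 tested early response genes, which neurons switch on when active, Fosl2 (0.99 ± 0.18) and Btg2 (0.70 ± 0.18) rose and Ier5 fell by 0.59 ± 0.16 on the log2 scale, against 3.57% and 2.06% of all genes tested, with a median of 0.13. Of 19 clock genes edgeR and DESeq2 called 0 higher and 2 lower, against 2.06% of all genes tested lower by edgeR. An unadjusted p under 0.05 was found for 7, against 14.5% of all genes. The 2 were Bhlhe40 (-0.83 ± 0.12) and Dbp (-0.66 ± 0.13, with 32.1% of its exon bases shared with another gene), and the list's median was -0.11. Voom called Nr1d1 lower as well, and without dexamethasone replicate 2 Per1 was called higher. Of 9 tested hypothalamic identity factors DESeq2 called 3 lower, among them Isl1 and Lhx1, against 215 of all 9273 genes in that fit. By edgeR 1 was lower. The 1 was Nkx2-2, from a median of 16.5 to 8.11 CPM (-1.07 ± 0.21, 9.67% of its exon bases shared). Of 11 tested thalamus genes Lef1 fell, from 25.5 to 12.0 CPM (-1.05 ± 0.22, 13.7% shared). Of all genes tested 2.06% were lower. Nkx2-2 is also a gene of oligodendrocyte precursors and Lef1 also one of vessels.

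To see where the response of this region differed from that elsewhere, the dexamethasone effect in PVN was set against the mean effect in the other 7 regions, in 1 edgeR fit over the libraries of all 8 regions with the animal as a block. Of 11053 genes tested, 24 passed (0.217%), and 544 (4.92%) had an unadjusted p under 0.05. Against AMY, CER and PFC only 8 genes passed, and with at least 10 counts in every library 9. The regional test was not repeated without dexamethasone replicates 1 and 2. The PVN value was above the mean of the other regions for 16 of the 24 and below it for 8. Dio2 had a log2 fold change of 2.45 in PVN and of 0.53 to 1.48 in the other regions, a difference from their mean of 1.302 ± 0.196 (SE; adjusted p 1.59e-06). The difference had the same sign on all 4 punching dates, from 1.11 to 1.44, and was 1.39 (adjusted p 2.27e-06) against AMY, CER and PFC alone. Rgs2, which encodes a brake on signalling through Gq-coupled receptors, went from 57.8, 93.1 and 136.1 CPM to 96.6, 128.7 and 281.4 CPM in PVN. Its log2 fold change was 0.51 ± 0.12 there and -0.45 to 0.19 elsewhere (difference 0.72 ± 0.12, adjusted p 7.85e-05; 0.56, adjusted p 0.0479, against AMY, CER and PFC alone).

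Dusp18, a phosphatase gene, had 1.39 in PVN and 0.24 to 0.94 elsewhere (difference 0.80 ± 0.15, adjusted p 0.00036). In PVN its arms did not overlap, with 15.5, 20.2 and 32.8 CPM in vehicle and 35.4, 56.7 and 75.3 CPM after dexamethasone. Bhlhe40, a transcriptional repressor gene of the clock, had -0.83 in PVN and -0.41 to 0.16 elsewhere (difference -0.74 ± 0.13, adjusted p 0.000193). It went from 41.7, 67.0 and 104.5 CPM to 18.9, 38.8 and 65.0 CPM, and 10 of 15 treated libraries lay below the vehicle range. Zbtb16 had 2.21 in PVN and 0.82 to 1.97 elsewhere (difference 0.92 ± 0.16, adjusted p 7.2e-05). Mthfd2 had 1.08 in PVN and 0.90 to 2.86 elsewhere (difference -1.19 ± 0.17, adjusted p 2.92e-07). Against AMY, CER and PFC alone Dusp18 and Bhlhe40 passed (both at adjusted p 0.0479), and Zbtb16 and Mthfd2 did not, with 0.53 (adjusted p 0.425) and -0.59 (adjusted p 0.295). For these 4 genes and for Rgs2 and Dio2 the sign of the difference was the same on all 4 punching dates.

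**Figure D5:**
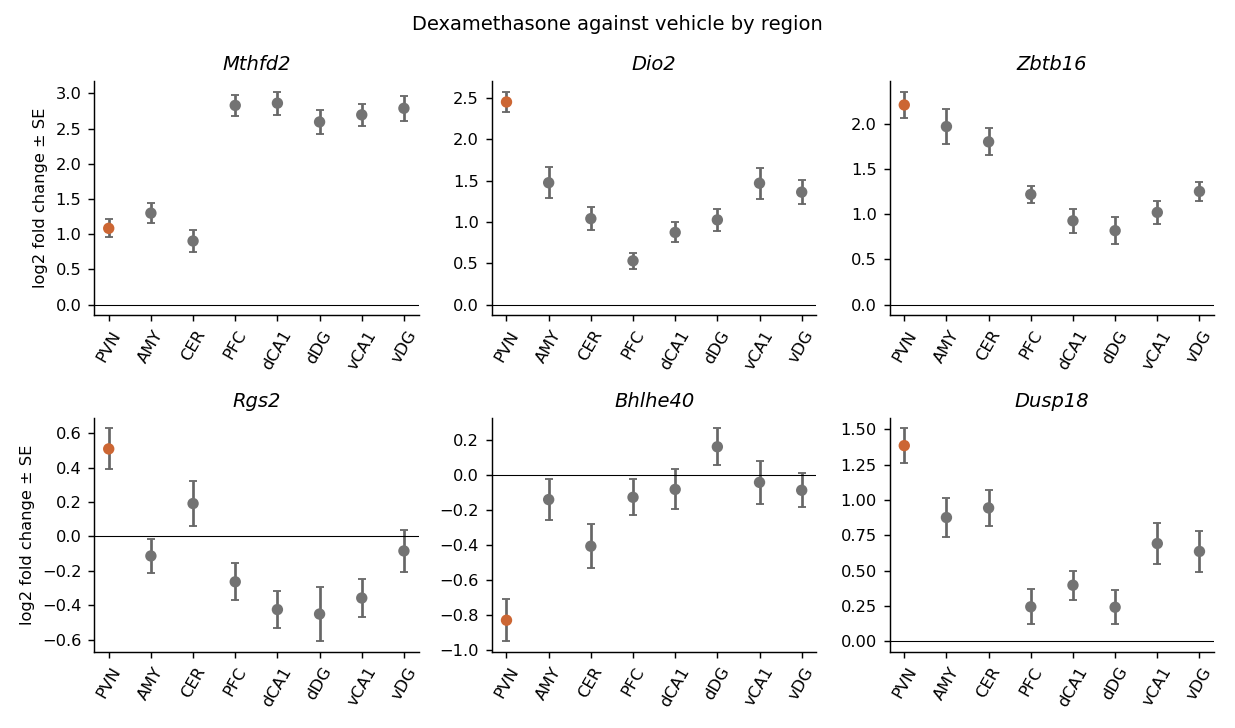
Log2 fold change, dexamethasone minus vehicle, with its SE (vertical) in each of the 8 regions (horizontal, PVN in orange) for the 6 genes with the smallest p in the test of PVN against the other regions. PVN lies above every other region for Dio2, Zbtb16, Rgs2 and Dusp18 and below every other region for Bhlhe40, while for Mthfd2 it lies close to AMY and CER.

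The other 18 genes of the 24 included further transcription factors and signalling genes that rose in PVN, given after their values were seen. Fosl2 had 0.99 in PVN and -0.13 to 0.30 elsewhere (difference 0.87, adjusted p 0.0213). Bcl6, a repressor gene, had 1.01 and 0.20 to 0.49 (difference 0.60, adjusted p 0.0196), and its arms in PVN did not overlap. The receptor gene Lifr, which serves cytokines of the interleukin-6 family, had 0.89 and 0.10 to 0.79 (difference 0.52, adjusted p 0.0189). The calcium-binding protein gene Tesc had 1.27 and -0.24 to 0.15 (difference 1.24, adjusted p 0.00837). In PVN Tesc went from 2.98, 9.45 and 15.5 CPM to 8.58, 20.5 and 73.3 CPM (lowest, median, highest). Against AMY, CER and PFC alone Tesc passed (1.37, adjusted p 0.0105), and Fosl2 (0.85, adjusted p 0.12), Bcl6 (0.54, adjusted p 0.193) and Lifr (0.34, adjusted p 0.794) did not. For Hr the difference was 1.00 (adjusted p 0.0407; 0.59, adjusted p 1, against those 3 alone), but it takes in 4 regions where Hr was too low to be tested on its own. In the 3 where it was tested, Hr had 1.98 in AMY, above the 1.90 of PVN, 1.75 in CER and 1.32 in vDG. Prkcd and Plekhg1, both genes of the thalamus list, had a PVN value below the mean of the other regions (-0.79 and -0.78). Neither passed in PVN (-0.15, adjusted p 0.898, and -0.09, adjusted p 0.932), and elsewhere the log2 fold changes were 0.40 to 0.82 for Prkcd and 0.48 to 0.94 for Plekhg1. The thalamus list had a lower summed median in treated than in vehicle punches (2248 against 3086 CPM). The part of thalamic tissue in these 2 values was not tested.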

How the data were processed

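The authors punched regions from frozen mouse brain sections and made 3′ end libraries with unique molecular identifiers (UMIs), per the labels' protocols. Per the submitters' processing notes, FastQC 0.11.4, cutadapt, UMI-tools 0.5.4, STAR 2.6.0a, featureCounts 1.6.4, DESeq2 1.30.1 and R 4.0.5 were used with build mm10. The use of strand, the annotation and the UMI settings are not given in the sources used here. The deposited table holds counts of 27998 genes in the libraries of 8 regions, unnormalised, and 27645 identifiers were paired with a symbol (GENCODE M21). A second deposited table holds log2-scale variance-stabilised values of 12924 genes in PVN, used only as an alternative.

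Counts of the 29 PVN libraries were filtered with filterByExpr, scaled by TMM and tested with edgeR 4.0.16 (R 4.3.3) by its quasi-likelihood test with no covariate, and adjusted by Benjamini-Hochberg over all genes tested. A call is an adjusted p under 0.05. CPM are counts scaled to a TMM-adjusted total of 1000000, and log2 values of single genes use a pseudocount of 1 where given as log2(CPM + 1). Permutation tests drew 100000 resamples. PVN was compared with the other 7 regions in 1 fit with the animal as a block. Alternatives were DESeq2 1.42.0, limma 3.58.1 (voom, and the deposited log2 values), sva 3.50.0 surrogate variables (8), other scaling and filters, covariates, a replicate block, and leaving out a library, the last chosen after seeing the data.

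Named genes were the 12 steepest rises and 12 steepest falls (mean of at least 5 CPM, same direction on every punching date), Oxt, Avp, Crh, Trh, Nr3c1 and Nr3c2, up to 5 called members of each of 26 lists, the 6 smallest p of the regional test, and the 8 highest and 4 lowest rank correlations with Oxt and Avp. Mt1, Errfi1, Sgk1 and Foxo3 are called list members beyond these 5, and all other genes named outside these rules, Per1, Dusp1 and Aqp4 among them, were chosen after their values were seen. The members and lists were chosen with earlier results of these data known. Counts of genes given with a share of exon bases on another gene are uncertain. On simulated counts of 9154 genes the PVN test recovered 82% of changes of 1.5-fold and 91% of 2-fold, with 13 false among 186 calls. For the regional test (2985 genes) it was 23% and 83%, with 9 false among 115 calls. Between any 2 libraries of an arm, chi-square was at least 1.42 times its degrees of freedom, so no library was counted as a copy.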

Additional observations from a re-analysis of the deposited data

Results flagged for a closer look

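The response of 6 genes in PVN differed from the mean response in the other 7 regions by a test of the difference itself (edgeR, libraries of all 8 regions, animal as a block). The differences in log2 fold change were 1.302 for Dio2, 0.92 for Zbtb16, 0.72 for Rgs2, 0.80 for Dusp18, -0.74 for Bhlhe40 and -1.19 for Mthfd2. Against AMY, CER and PFC alone, Dio2, Rgs2, Bhlhe40 and Dusp18 passed and Zbtb16 and Mthfd2 did not.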

How the results depend on the processing

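Across 14 other settings of the PVN fit, 292 to 674 genes were called. The lowest count, 292, came from requiring at least 10 counts in every library, which left 5213 genes to test (5.6% called), and 277 of these calls were among the 522. Without dexamethasone replicate 1 or 2 the counts were 523 and 525 for all genes, 14 and 15 for the glucocorticoid response list and 0 and 0 for the peptide list. The labels do not say what the replicate number marks, and not every pair's correlation was over 0.1, so the reported fit has no block. Over 14 same-numbered pairs the correlation of deviations was -0.055 to 0.385 (median 0.098, against -0.002 for all vehicle and dexamethasone pairs), 6 were over 0.1 and 5 vehicle libraries were closest to their own number, although all 14 pairs shared a plate and 13 a punching date. With the number as a replicate block 619 genes were called, 499 of them among the 522, and the peptide list had 1 call, Crh (0.97, adjusted p 0.0255). Of the genes in the lists the block also called Per1, Dusp1, Junb, Pdk2 and Glul higher and Bhlhe41, Deptor, Pik3ca, Slc7a11, Gabra4, Aqp4 and Ugt8a lower, and no longer called Foxo3. With surrogate variables it had 1 call too, Avp at -0.76 (adjusted p 0.04999), the reverse of the reported sign. Trh was reversed with the Oxt and Avp covariate (-0.42), the hypothalamic factor covariate (-0.033), surrogate variables (-0.34), voom (-0.045) and the deposited log2 values (-0.091). The regional test called 9 genes with at least 10 counts in every library, where Dio2 was the only one of the 6 tested, and 8 against AMY, CER and PFC only. The cause was not tested for any of these. None of the called named genes reversed under these settings, and Foxo3 lost its call under most, and Oprk1, Foxo1 and Cebpb with surrogate variables. At these depths a gene at 0 may stand for up to 3 counts.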
